A study of Homo sapiens with 2 samples.

Results

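Apoptosis is held in check or set off by a small set of regulators, and 9 of them were read out here in the chromatin-associated RNA of SH-SY5Y cells, a human neuroblastoma line. The genes were taken by symbol from GENCODE version 44 and are 9 of the 60554 genes listed in the files. They form 4 classes: the pro-survival genes BCL2, MCL1 and BCL2L1, the BH3-only genes BCL2L11, BBC3 and PMAIP1, the caspase CASP8, and the inhibitor of apoptosis (IAP) genes XIAP and BIRC6. Per the labels the cells carried no genetic modification, and no treatment or time is given. The series holds 2 libraries of this 1 condition, replicates 1 and 2. No gene could therefore be tested for a change, and the labels do not say if they are separate cultures, so their spread, and p-values that rest on it, may be technical. The level of a gene in bulk RNA also cannot tell fewer expressing cells from less RNA per cell.

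In the intrinsic pathway, pro-survival BCL2 proteins bind and restrain the effectors that permeabilise the outer mitochondrial membrane. BH3-only proteins, many of them induced by stress or by p53, counter the pro-survival proteins. Caspase-8 starts the extrinsic pathway downstream of death receptors, and IAP proteins act on caspases at the far end of both. Loss of caspase-8 expression is a known feature of many neuroblastomas, and BCL2 and MCL1 are known survival factors in this tumour.

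Chromatin RNA holds transcripts still attached to the template, so the sequence before the start sites is shown for 4 genes that span the range of CG content among the members. CG dinucleotides are the sites of DNA methylation and are dense in CpG islands. The sequences are those of RefSeq on GRCh38.p14, all on the plus strand, 5′ to 3′, with each CG in capitals. That of CASP8 is cut to 230 bases, where its first GENCODE exon begins. CASP8 (chr2:201233213-201233442) and XIAP (chrX:123859458-123859707) hold 6 and 4 CG dinucleotides, and PMAIP1 (chr18:59899746-59899995) and BIRC6 (chr2:32356773-32357022) hold 36 and 32.
CASP8: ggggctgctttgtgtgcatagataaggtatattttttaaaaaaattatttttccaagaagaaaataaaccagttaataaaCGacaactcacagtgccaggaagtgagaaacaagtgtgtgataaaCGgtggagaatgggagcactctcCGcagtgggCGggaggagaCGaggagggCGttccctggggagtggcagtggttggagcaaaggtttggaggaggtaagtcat
XIAP: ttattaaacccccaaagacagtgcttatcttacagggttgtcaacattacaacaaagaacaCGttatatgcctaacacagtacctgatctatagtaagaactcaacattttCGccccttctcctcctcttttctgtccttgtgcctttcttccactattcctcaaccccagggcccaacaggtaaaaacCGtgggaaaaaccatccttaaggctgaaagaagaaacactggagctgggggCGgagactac
PMAIP1: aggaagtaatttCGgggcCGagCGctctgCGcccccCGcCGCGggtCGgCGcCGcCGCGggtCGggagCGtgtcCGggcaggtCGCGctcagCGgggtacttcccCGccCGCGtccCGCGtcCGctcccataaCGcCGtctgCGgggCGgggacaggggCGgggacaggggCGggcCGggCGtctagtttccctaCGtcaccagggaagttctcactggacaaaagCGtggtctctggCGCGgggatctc
BIRC6: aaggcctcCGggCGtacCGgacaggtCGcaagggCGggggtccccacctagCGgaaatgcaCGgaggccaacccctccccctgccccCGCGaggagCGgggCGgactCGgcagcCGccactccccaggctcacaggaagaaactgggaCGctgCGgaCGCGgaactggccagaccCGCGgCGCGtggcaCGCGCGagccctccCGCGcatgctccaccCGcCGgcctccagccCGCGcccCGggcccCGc

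Over the 250 bases before 35116 annotated starts, the median was 11 CG dinucleotides, with quartiles of 3 and 23. Of the 9 genes, 8 matched the table, with 14 starts; MCL1 had no entry. All 3 annotated starts of CASP8 lay below the median and above the lower quartile, with 6, 5 and 5. XIAP differed between its starts, with 4, 12 and 23 in overlapping windows. BBC3 had 4, BCL2L1 had 17 and 12, BCL2 had 24, BCL2L11 had 34 and the second start of BIRC6 had 28. Some windows hold bases annotated as exon in GENCODE, all 250 for BCL2 and for the second start of BCL2L1. The second start of BIRC6 had 193 such bases, the third of XIAP 103 and BBC3 99. The motif GGGCGG, searched on both strands, was present before the first start of CASP8, the first and second of XIAP, the first of BIRC6, and those of BCL2L11 and PMAIP1. It was found before 42.6% of all starts. The motif TATAAA, searched on both strands, was found before the first start of BCL2L1 and the second of CASP8, against 10.7% of all starts. These counts describe the reference sequence. Methylation was not measured.

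**Figure D1:**
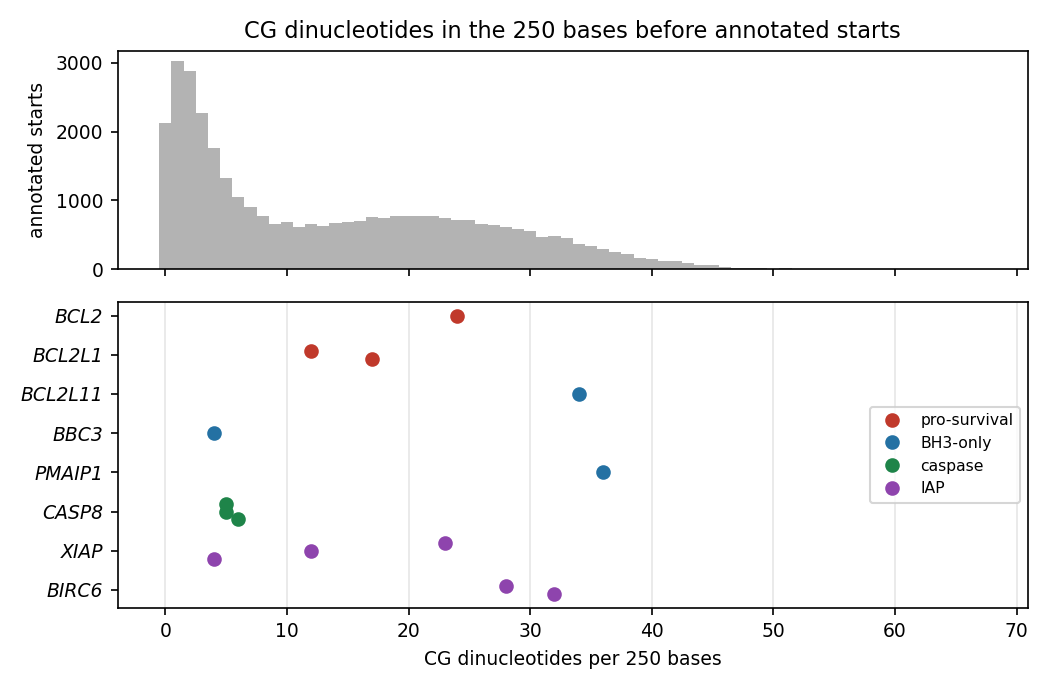
The upper panel counts annotated starts (y axis) by the number of CG dinucleotides in the 250 bases before them (x axis), and the lower panel places each annotated start of 8 members on the same axis, coloured by class. All starts of CASP8 and the start of BBC3 lie at 6 or below, whereas those of BIRC6, BCL2L11 and PMAIP1 lie at 28 or above.

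The libraries held 4155210 and 3425309 read pairs assigned to genes on the sense strand, and the opposite strand took 540916 and 436277. Levels are given as CPM, the sense count scaled to a library total of 1000000, and, for comparisons between genes, as CPM per kb of exon that no other listed gene shares on the strand. The 5 sympathetic neuroblast markers HAND2, ISL1, TFAP2B, GATA2 and ELAVL4 lay between 38.8 and 231 CPM per kb. Of 10 markers of other cell types, 6 were at 0 in both libraries, including PECAM1, PTPRC and SOX10, and CDH1 had 1 sense count in each. The remaining 3 were read in both libraries. EPCAM, the highest per length, had 26 and 17 sense counts and 2.31 CPM per kb. DCN had 54 and 69 (1.28 CPM per kb), and COL1A1 had 27 and 21 (0.701 CPM per kb). EPCAM, DCN and COL1A1 thus count as detected under the minimum of 10 used below. Which cells their RNA came from was not tested. The defining markers of the labelled cell line, the 5 neuroblast genes, were present in both libraries.

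The pro-survival genes differed widely among themselves, with MCL1 and BCL2 among the 3 highest members and BCL2L1 in 6th place of 9. MCL1, a short-lived guardian of mitochondrial integrity (chr1:150560895-150579738, minus strand), had 3162 and 2837 sense counts in replicates 1 and 2. Its level was 129 and 141 CPM per kb, 135 ± 8.07 (SD, n = 2), above 99.6% of the 14696 protein-coding genes with a count. BCL2, the founding member of the family (chr18:63123346-63320128, minus strand), had 2026 and 1741 sense counts. That is 38.7 and 40.3 CPM per kb, 39.5 ± 1.16 (SD, n = 2), above 96.5% of those genes. BCL2L1, which encodes BCL-XL (chr20:31664452-31723989, minus strand), had only 70 and 65 counts. At 4.01 and 4.52 CPM per kb, 4.27 ± 0.359 (SD, n = 2), it lay near the median of 4.57 over the same 14696 genes. In replicate 1, BCL2 exceeded BCL2L1 by 9.63-fold (7.59 to 12.4, 95% counting interval), and in replicate 2 by 8.91-fold (6.96 to 11.6).

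The strand mattered for BCL2L1. The antisense long non-coding RNA ABALON covers 1735 bases, or 41.3%, of the BCL2L1 exons. In the unstranded column, which counts no pair that falls on exons of both genes, BCL2L1 kept 12 and 10 counts against 70 and 65 in the sense column. ABALON itself had 4 sense counts in each library. Its opposite strand, which is the strand of BCL2L1, held 79 and 70. MCL1 shares 328 exon bases, 5.27% of its exons, with ADAMTSL4-AS1 on the same strand, and pairs there were given to neither gene. ADAMTSL4-AS1 had 277 and 186 sense counts outside them. ADAMTSL4, which lies antisense to MCL1 and overlaps it by 43 exon bases, had 1 and 2.

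**Figure D2:**
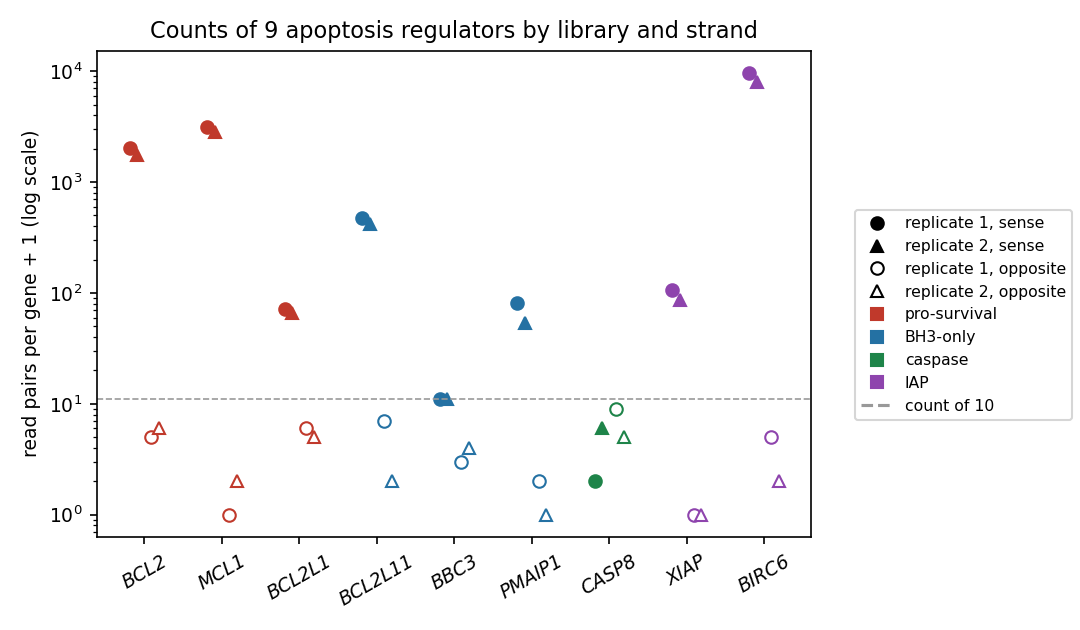
Read pairs per gene plus 1 on a log axis for the 9 members, with circles for replicate 1 and triangles for replicate 2, filled for the sense strand and open for the opposite strand, coloured by class. The dashed line marks a count of 10. The sense counts lie above the opposite counts for 8 genes in both libraries, whereas CASP8 had 1 and 5 sense against 8 and 4 opposite counts.

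The BH3-only genes lay below MCL1 and BCL2 and were spread over more than an order of magnitude, with BCL2L11 and PMAIP1 above BCL2L1. BCL2L11, which encodes BIM (chr2:111119378-111168444, plus strand), led them with 471 and 417 sense counts. Its level was 16.8 and 18.1 CPM per kb, 17.4 ± 0.880 (SD, n = 2), above 85.5% of protein-coding genes with a count. The antisense gene MIR4435-2HG shares 727 bases, 10.8%, of the BCL2L11 exons and had 8 and 11 sense counts over all its exons. PMAIP1, the p53 target NOXA (chr18:59899996-59904305, plus strand), had 80 and 53 counts. At 8.81 and 7.08 CPM per kb, 7.94 ± 1.22 (SD, n = 2), it was the member other than CASP8 whose libraries lay farthest apart for their mean. BBC3, the p53 target PUMA (chr19:47220822-47232766, minus strand), had 10 counts in each library. Its level of 0.756 and 0.917 CPM per kb, 0.836 ± 0.114 (SD, n = 2), lay above only 22.5% of protein-coding genes with a count. MIR3190, antisense to BBC3 over 80 exon bases, had 1 count in replicate 1 and 0 in replicate 2.

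CASP8, the initiator caspase of the extrinsic pathway (chr2:201233443-201361836, plus strand), was the lowest member. It had 1 sense count in replicate 1 and 5 in replicate 2, with 7.237 kb of exon in 25 annotated transcripts. Its level was 0.0333 and 0.202 CPM per kb, 0.117 ± 0.119 (SD, n = 2), so the spread between libraries was as large as the mean. Over both libraries the 6 counts corresponded to 0.792 CPM (0.290 to 1.72, exact Poisson 95% interval). Per length this was 0.109 CPM per kb (0.0401 to 0.238). The median of protein-coding genes with a count was 19.2 times the upper limit. It was 7.77 times when the longest transcript was the length for CASP8 alone, with the median of the other genes left per kb of exon. More pairs fell on the opposite strand of CASP8, with 8 and 4 counts. The sense share was 6 of 18 pairs, or 33.3% (16.3 to 56.3, Wilson 95% interval), with 11.1% in replicate 1 and 55.6% in replicate 2. CASP8 was the only 1 of the 9 members with at least as many opposite as sense counts, a state found in 16.4% of the 15898 protein-coding genes with a count on either strand.

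The surroundings of CASP8 on chromosome 2 were read at unequal levels. CASP10, the paralogous initiator caspase that ends 4.02 kb before the start of CASP8, had 1 and 0 sense counts and 0.0135 CPM per kb. CFLAR, which encodes the caspase-8 inhibitor c-FLIP and starts 117 kb before CASP8 in the same direction, had 191 and 134 sense counts and 1.93 ± 0.220 CPM per kb (SD, n = 2). FLACC1 lies antisense between the end of 24 of the 25 CASP8 transcripts and the last exon of the remaining transcript, which alone reaches past it. It had 12 and 18 sense counts, 1.55 ± 0.635 CPM per kb (SD, n = 2), and its annotated end lies 559 bases from the last of those 24 transcript ends. The exons of FLACC1 held 0 counts on the strand of CASP8 in both libraries, which allows up to 0.150 CPM per kb there. TRAK2, the nearest protein-coding gene beyond CASP8, had 320 and 263 counts and 10.2 ± 0.0217 CPM per kb (SD, n = 2). The caspase pair together had 2 and 5 sense counts. It was not alone in this among the neighbours, since C2CD6, which ends 254 kb past the start of CASP8, had 1 and 3 counts and 0.0819 ± 0.0659 CPM per kb (SD, n = 2).

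**Figure D3:**
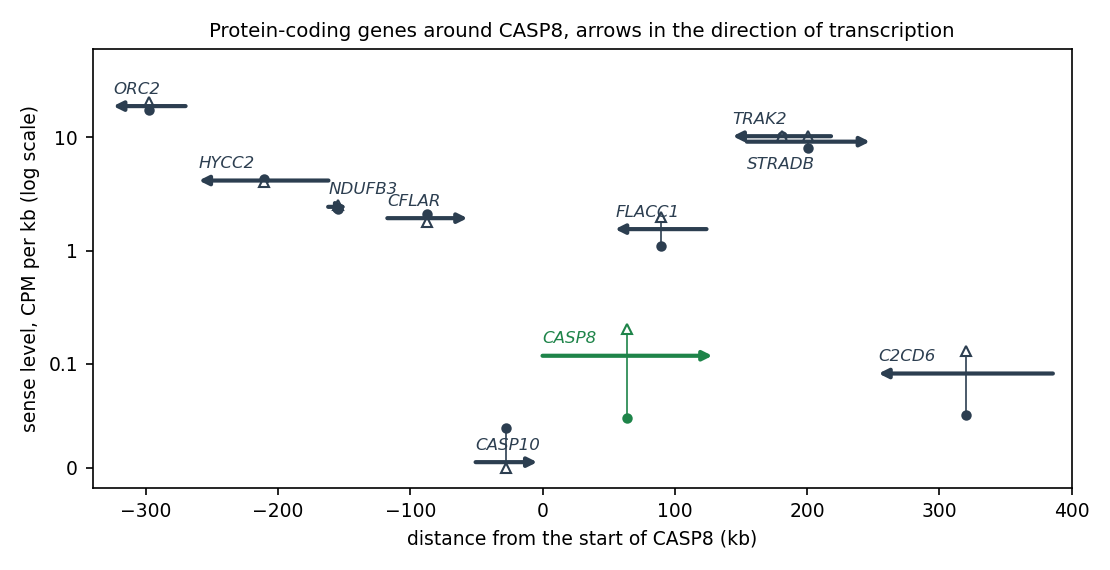
Protein-coding genes within 300 kb of CASP8, with the distance from the CASP8 start in kb on the x axis and the sense level in CPM per kb on a log y axis, where 0 is drawn at the tick so marked. Each arrow spans a gene at its mean level and points in the direction of transcription, with a circle for replicate 1 and a triangle for replicate 2. CASP8 and CASP10 lie below 0.3 CPM per kb, and CFLAR, FLACC1, TRAK2, STRADB, HYCC2, NDUFB3 and ORC2 lie above 1. C2CD6, at the far right, lies at a mean of 0.0819, below the mean of CASP8. In replicate 1 it lies slightly above CASP8, at 0.0353 against 0.0333.

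The IAP genes lay far apart. BIRC6, a giant ubiquitin-conjugating protein that acts on caspases (chr2:32357023-32619571, plus strand), had 9670 and 7935 sense counts, the most of the set. That is 126 and 125 CPM per kb over 18.535 kb of exon, 125 ± 0.405 (SD, n = 2), above 99.5% of protein-coding genes with a count. XIAP, a direct inhibitor of caspases (chrX:123859712-123913972, plus strand), had 106 and 86 counts. Its level of 2.68 and 2.64 CPM per kb, 2.66 ± 0.0299 (SD, n = 2), was below the median of 4.57 and above 38.0% of those genes. BIRC6 exceeded XIAP by 46.9-fold in replicate 1 (38.7 to 57.3, 95% counting interval) and 47.4-fold in replicate 2 (38.3 to 59.3). The antisense gene BIRC6-AS1, which shares 49 exon bases with BIRC6, had 0 sense counts in both libraries and 212 and 163 counts on its opposite strand, which is the strand of BIRC6.

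Chromatin RNA includes introns, and genes annotated inside introns offered windows onto the member's strand. There were 15 such genes with a row in the files, 6 of them with at least 500 bases of exon. In BIRC6, 3 windows on its own strand were read at high levels. ENSG00000276334 had 460 and 330 counts, 63.9 ± 6.27 CPM per kb (SD, n = 2), which is 51.0% of the level of the BIRC6 exons. ENSG00000276517 had 479 and 405 counts, 38.9 ± 0.697 CPM per kb (SD, n = 2) or 31.0%. ENSG00000279544 had 364 and 346, 30.3 ± 3.05 CPM per kb (SD, n = 2) or 24.2%. Each lies within 4 of the 15 annotated BIRC6 transcripts, and RNA of BIRC6 introns and RNA of these genes cannot be told apart. The windows in BCL2 and XIAP belong to genes annotated on the opposite strand. In BCL2, the window of ENSG00000283125 held 15 and 12 counts on the strand of BCL2 and none on its own, 6.50 ± 0.138 CPM per kb (SD, n = 2) or 16.5% of the BCL2 exons. In XIAP, that of the pseudogene PARD6BP1 held 5 and 6 counts on the strand of XIAP, 2.09 ± 0.548 CPM per kb (SD, n = 2) or 78.6% of the XIAP exons.

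**Figure D4:**
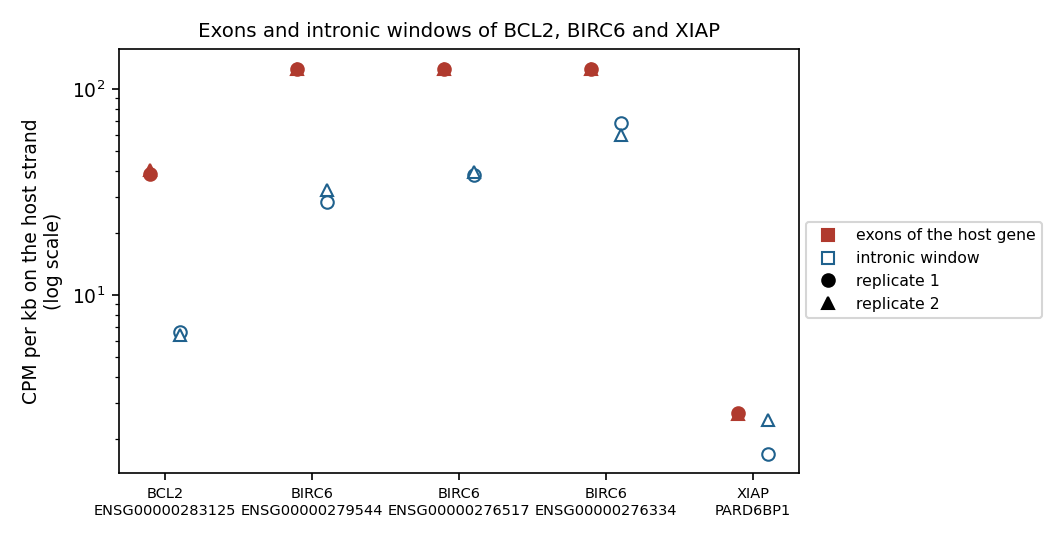
CPM per kb on the strand of the host gene, on a log axis, for the exons of BCL2, BIRC6 and XIAP (filled) and for intronic windows of at least 500 bases (open), with circles for replicate 1 and triangles for replicate 2. The windows of BIRC6 lie at 24.2% to 51.0% of its exons and that of BCL2 at 16.5%, whereas that of XIAP rests on 5 and 6 counts.

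By level per length, the members ranked MCL1, BIRC6, BCL2, BCL2L11, PMAIP1, BCL2L1, XIAP, BBC3 and CASP8, in that order in each library. The order depended on dividing by length: for CPM alone BIRC6 came before MCL1, and XIAP and BCL2L1 before PMAIP1. Of the 36 pairs, 35 differed beyond their 95% counting intervals in both libraries. The exception was MCL1 over BIRC6, at 1.03-fold in replicate 1 (0.988 to 1.07) and 1.12-fold in replicate 2 (1.08 to 1.17). The neighbours BCL2L1 and XIAP were the next closest in replicate 1 but not in replicate 2, at 1.50-fold (1.09 to 2.05) and 1.71-fold (1.22 to 2.39). These are sense levels. In the unstranded column XIAP came before BCL2L1, at a length that still held the bases shared with ABALON. PMAIP1 exceeded BCL2L1 by 2.19-fold (1.57 to 3.07) and 1.57-fold (1.07 to 2.29). BBC3 exceeded CASP8 by 22.7-fold (3.23 to 986) and 4.54-fold (1.42 to 16.9), so that the size of this step was poorly fixed at this depth. From MCL1 to CASP8 the ratio was 3882 (696 to 153398) in replicate 1 and 697 (298 to 2147) in replicate 2. The intervals cover counting error only.

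Compared by class, the pro-survival genes had a median of 39.5 CPM per kb (38.7 and 40.3 in the libraries) and the BH3-only genes 7.94 (8.81 and 7.08). The ratio of the medians was 4.97, with 4.39 in replicate 1 and 5.69 in replicate 2. The classes overlapped, since BCL2L1 lay below BCL2L11 and PMAIP1. The median rests on 3 genes a class, and genes are not replicates, so the ratio is a description. It was 7.30 with the longest transcript as the length and 28.7 for CPM without length. Over the full lists of 6 pro-survival and 8 BH3-only genes the medians were 4.43 and 4.75 CPM per kb, a ratio of 0.932, so the higher pro-survival median held for the members and turned round for the lists. In summed CPM, the pro-survival genes had 1265 and 1356, the BH3-only genes 135 and 140, the IAP genes 2353 and 2342, and CASP8 0.241 and 1.46. Together the 9 genes took 0.375% and 0.384% of all sense counts, most of it from BIRC6 with a mean of 2322 CPM.

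With a minimum of 10 for the mean count, 8 of the 9 members were detected, all but CASP8, against 59.4% of all 19586 protein-coding genes. The median over the members was 7.94 CPM per kb, above that of the protein-coding genes with a count. Apart from CASP8, with 12 opposite among its 18 pairs, and BBC3, reads of the other strand were few beside the sense counts. BIRC6 had 4 and 1 opposite counts, BCL2 4 and 5, MCL1 0 and 1, and XIAP 0 in both. The sense share was 93.75% for BCL2L1 and 80.0% (60.9 to 91.1, Wilson 95% interval) for BBC3, the latter from 25 pairs. Over protein-coding genes above the same minimum the median sense share was 99.3%, and the 10th percentile was 73.7%.

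The libraries were then compared with each other by an exact binomial test of each gene's counts against the totals, two-sided, with Benjamini-Hochberg adjustment over 14978 genes. This test compares these libraries, not conditions. Of the 8 members tested, 1 was called, MCL1, with a log2 ratio of replicate 1 over replicate 2 of -0.12 (exact p = 0.00108, adjusted p = 0.0214). Over all genes tested, 7.34% were called. The difference in MCL1 was smaller than the median absolute log2 ratio of 0.20 over those genes and was resolved by its high count. BIRC6, with more counts still, differed by 0.01 (exact test, adjusted p = 0.942). PMAIP1 had the largest ratio among the 8 members tested, 0.32 on the log2 scale, and was not called (exact test, adjusted p = 0.568).

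The rest of the pathway was read from 8 lists of 53 genes that include the members. In all, 32 of the 53 genes (60.4%) reached that minimum, close to the 59.4% of all protein-coding genes. Of the 44 genes that are not members, 24 (54.5%) did so, with a median of 1.64 CPM per kb. Among the pro-survival genes, 4 of 6 reached that count, with a list median of 4.43 CPM per kb. BCL2L2, which encodes BCL-W, had 82 and 59 counts and 4.59 ± 0.441 CPM per kb (SD, n = 2), close to BCL2L1. BCL2L10 had 1 and 0 counts, and BCL2A1 had none in either library. Of the effectors that BCL2 proteins restrain, BAX had 56 and 48 counts and 5.31 ± 0.147 CPM per kb (SD, n = 2). BAK1 had 76 and 37 counts, 6.58 ± 2.39 CPM per kb (SD, n = 2), with the higher value in replicate 1. BOK had 6 and 2 counts.

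Of the 8 BH3-only genes, 6 reached the count, with a list median of 4.75 CPM per kb. Beside BCL2L11 and PMAIP1, the highest were BAD at 6.30 ± 0.453 and BID at 5.86 ± 0.721 CPM per kb (SD, n = 2). BIK had 0 and 2 sense counts and 13 and 9 on the opposite strand. HRK had 0 and 1. The BH3-only genes were thus read at unequal levels within the list, with BBC3 next above BIK and HRK.

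Of the 7 apoptotic caspase genes, 5 reached the count, and the initiators CASP8 and CASP10 of the death receptor arm did not. CASP2 was highest with 432 and 334 counts, 12.6 ± 0.569 CPM per kb (SD, n = 2). CASP6, an executioner, had 55 and 48 counts and 7.01 ± 0.283 CPM per kb (SD, n = 2). CASP9, the initiator of the mitochondrial arm, had 46 and 20 counts and 1.60 ± 0.702 CPM per kb (SD, n = 2). Of the 4 other caspase genes, CASP4 had 0 and 1 counts, and CASP1, CASP5 and CASP14 had none.

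Of the 7 IAP genes, 4 reached the count. Beside BIRC6 and XIAP these were BIRC2, a ubiquitin ligase of the TNF receptor complex, at 16.0 ± 1.48 CPM per kb, and BIRC5, which encodes survivin, at 8.79 ± 0.561 CPM per kb (SD, n = 2). NAIP had 2 counts in each library, and BIRC3 and BIRC7 had none. Of the IAP antagonists and apoptosome genes, 4 of 5 reached it. CYCS, which encodes cytochrome c, led with 464 and 505 counts and 22.4 ± 4.37 CPM per kb, followed by HTRA2 at 15.8 ± 0.392 CPM per kb (SD, n = 2). HTRA2 also had 134 and 102 counts on its opposite strand. APAF1, the scaffold of the apoptosome, lay at 6.08 ± 0.0857 CPM per kb (SD, n = 2). XAF1 had 0 and 1 counts.

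In the death receptor list, 7 of 13 genes reached the count, with a median of 1.59 CPM per kb. TNFRSF10B, a receptor for TRAIL, was highest with 318 and 252 counts and 15.0 ± 0.418 CPM per kb (SD, n = 2). TNFRSF25 followed at 7.64 ± 0.929 CPM per kb (SD, n = 2). FADD, the adaptor that recruits caspase-8, had 16 and 13 counts and 2.24 ± 0.0229 CPM per kb (SD, n = 2). FAS had 6 and 11 sense counts, TNFRSF10C 3 and 1, and TNFRSF10A 1 and 0, while FASLG, TNFSF10 and TNFRSF10D had none. The adaptor and the TRAIL receptor TNFRSF10B were therefore read in both libraries at levels above that of CASP8. Per length, in the mean of the libraries, FAS at 0.0799 CPM per kb and TNFRSF10A at 0.0411 lay below the 0.117 of CASP8. So did the genes without a count. In replicate 1, FAS at 0.0495 and TNFRSF10A at 0.0822 lay above the 0.0333 of CASP8, so their order against CASP8 was not fixed.

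**Figure D5:**
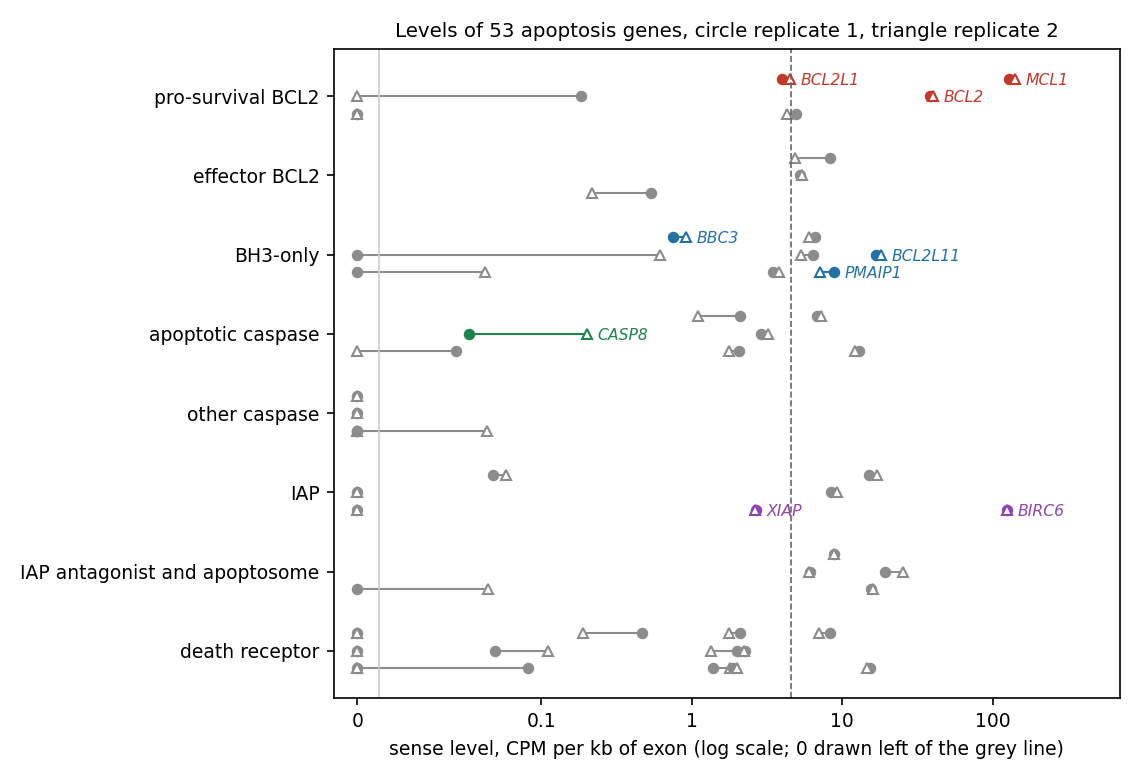
Sense level in CPM per kb of exon on a log x axis for 53 apoptosis genes by list, with a circle for replicate 1, an open triangle for replicate 2 and a line between them, members named and coloured and other genes in grey. Values of 0 are drawn left of the grey line, and the dashed line marks the median of 4.57 over protein-coding genes with a count. MCL1, BIRC6 and BCL2 lie farthest right, and CASP8 lies below 0.3 in both libraries.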

How the data were processed

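RNA was read from the chromatin fraction of SH-SY5Y cells in 2 libraries, paired-end, with a directional kit that carries molecular identifiers. According to the study's methods, identifiers were extracted with UMI-tools, reads were trimmed, ribosomal and spike-in sequences were removed with Bowtie, and pairs were mapped with STAR, collapsed by identifier and mapped again. The build was hg38, per the labels. Versions of tools, STAR options and the annotation release are not stated there. The authors deposited STAR's gene counts, not normalized, with columns for pairs regardless of strand and for either strand. Multimapping pairs and pairs over exons of more than 1 gene belong to no gene's count.

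Column 4 was taken as sense because it held more counts than column 3 in each library. Sense counts in genes were 18.5% and 17.5% of the uniquely mapped pairs, and 79.4% and 80.7% fell on no exon of that strand. These pairs were left out of totals. Intron bases can still enter a level through other genes annotated there, through exons of alternative transcripts, or through pairs that reach into an exon. The share of such bases was not measured. A count of 1 was worth 0.241 and 0.292 CPM, and 3 counts over both libraries set a floor of 0.396 CPM.

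Of the 60554 rows, 56558 were found in GENCODE version 44 without version numbers. CPM was divided by the exon length that no other listed gene shares on the strand. A match of exons to the genome with blastn 2.17.0 (at least 75 bases at 98% identity) found copies elsewhere of 78 bases of CASP8 and 164 of XIAP, and none for the other 7 genes. Intervals were exact Poisson, Wilson or conditional binomial at 95% (Python 3.11.15, scipy 1.17.1, pandas 2.3.3, numpy 2.4.6, matplotlib 3.10.9), and cover counting error only. The test between libraries was checked on simulated data with counting noise only. That check cannot show how the test behaves where replicates spread beyond counting noise. No count model was fitted, since there was 1 condition.

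The members and lists were chosen with earlier results of these data known. Genes named are the 9 members, in each list the 2 highest and 2 lowest others per length and those under a mean count of 10, genes sharing exon bases with a member, and the nearest protein-coding genes of CASP8. CFLAR, FADD, COL1A1, the genes in introns and the other genes plotted around CASP8 were named in addition, after their values were seen. Alternatives were the other columns, each library alone, other count minimums, lengths and scalings.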

Additional observations from a re-analysis of the deposited data

How the results depend on the processing

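The count of members at a mean of at least 10 was 8 in the sense column and 0 in the opposite column, and 4 with a minimum of 100. For the 53 listed genes the count was 32, with 5 in the opposite column and 14 with a minimum of 100. The median level of the members, 7.94 CPM per kb, was 25.3 CPM without division by length. The ratio of pro-survival to BH3-only medians, 4.97, was 7.30 with the longest transcript and 28.7 without length, and it turned round to 0.932 over the full lists of 6 and 8 genes, a setting also chosen after seeing the data. The sense share of the members together was 99.83% (99.78 to 99.87) and 99.6% without BIRC6, a setting chosen after seeing the data. The other 24 values of these results under alternatives, each library alone and the unstranded column among them, moved by less than the spread between replicates or stayed within 1.5 times. Among single members, BCL2L1 moved most, to 0.674 CPM per kb in the unstranded column. The length used there still held the 1735 exon bases shared with ABALON, where that column counts no pair. Its place below BBC3 in that column therefore cannot be read as a change of order. In that column BCL2L1 also lay below XIAP, which had 2.59 CPM per kb. The order of BCL2L1 over XIAP rests on the sense column, where BCL2L1 had 70 and 65 counts, against 12 and 10 in the unstranded column. CASP8 rose to 0.323 in the unstranded column and to 0.290 with the longest transcript. That length also raised BCL2 to 66.7 and BBC3 to 1.44 CPM per kb, without changing the order of the members. MCL1 was the member called between the libraries under each alternative. No paired analysis was possible because there was only 1 group. Depth limits CASP8 and BBC3, whose 6 and 20 sense counts leave wide intervals, and with 2 libraries each SD is itself poorly known.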
